A study of Homo sapiens with 25 samples.

Results

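The mRNAs of 9 Polycomb group genes, PHC1, PHC2, PHC3, BMI1, RING1, RNF2, CBX8, EZH2 and SUZ12, were followed in RNA recovered by immunoprecipitation of IGF2BP1 from HCT116 cells. They are 9 of the 63086 genes counted and of the 20044 protein-coding ones. PHC3 was chosen by its lower level in the RNA immunoprecipitation sequencing (RIP-seq) libraries of all 3 IGF2BP1 mutants, and the other 8 mRNAs, called its partners below, were chosen as those of further Polycomb proteins, 6 of the complex that holds PHC3 and 2, EZH2 and SUZ12, of a second complex. The differences of PHC3 between mutants and wild-type, and between treatments of the same libraries, are therefore given as a description, with no test.

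HCT116 is a human colorectal carcinoma cell line. The cells carried Tet-OsTIR1-PURO and CRISPR-Cas9 knockouts of IGF2BP2 and IGF2BP3, and they expressed mCherry-IGF2BP1 from a lentivirus with the hPGK promoter. The 4 lines carried wild-type IGF2BP1 (WT), the phosphomimetic mutants S181E (linker 1) or Y396E (linker 2), or the RQ mutant, in which 4 arginines of linker 1 were replaced by glutamine. Each line was a cell population sorted by flow cytometry in a narrow gate, not a clone, and there was 1 such population per genotype, so that a line and its genotype cannot be told apart. Cells received PBS (control) or 500 µM sodium arsenite, an oxidative stressor, for 2 h, and mCherry was captured with RFP-Trap beads. Each line and treatment had 3 libraries from dishes grown independently, except RQ in arsenite with 2, which gave 23 libraries. Parental HCT116 cells without the fusion protein gave 1 further library per treatment as the background of the beads. The paper describes them as nonengineered, so a fold over them can span the knockouts and the transduction besides the fusion protein.

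Polycomb group proteins keep developmental genes silent by modifying histones in 2 main complexes. Polycomb repressive complex 1 (PRC1) places ubiquitin on histone H2A, and Polycomb repressive complex 2 (PRC2) methylates lysine on the tail of histone H3, a mark that the CBX proteins of canonical PRC1 read. PHC1, PHC2 and PHC3 are the polyhomeotic subunits of canonical PRC1, whose SAM domains polymerise and compact chromatin. IGF2BP1 binds RNA mainly through its KH domains and is known for binding within the 3′ untranslated region (UTR) of many mRNAs.

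Levels are CPM, read counts scaled to a common library size with TMM factors (trimmed mean of M values) over protein-coding genes. The 23 mCherry libraries held between 22246381 and 60273548 counts each. The parental control library held 1238013 counts and the parental arsenite library 18942497. No count fell on IGF2BP1 in either parental library, and in the lines its mean level was 40.1 to 111 CPM. Counts on IGF2BP2 and IGF2BP3 remained in every line, which measures RNA and not protein. The 5 epithelial markers EPCAM, KRT8, KRT18, KRT19 and CDH1 were present in each of the 23 libraries, at 28.7 to 1180 CPM. Of the 7 markers of other cell types, PTPRC and COL1A2 were at 0 throughout, CD3E, PECAM1, ALB and GFAP reached at most 1.52 CPM, and COL1A1 ranged from 1.58 to 13.4 CPM. As RNA-Seq was not analysed here, less of an mRNA bound to IGF2BP1 cannot be told apart from less of that mRNA in the cells, and fewer cells with an mRNA cannot be told apart from less of it per cell.

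The 8734 protein-coding genes above 10 CPM in 11.5 or more of the 23 libraries were tested. A gene passed when it changed by over 20% with an adjusted p under 0.05, from edgeR's quasi-likelihood test and Benjamini-Hochberg adjustment over all 8734 genes. Of the 9 members 8 exceeded this level, PHC3 and 7 partners. RING1, a RING finger ubiquitin ligase of PRC1, exceeded 10 CPM in only 11 libraries and was left out.

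PHC3 was the most abundant member. With 1298 ± 118 CPM (SD, n = 3) in WT control libraries it ranked 54th of the 8734 tested mRNAs, where the median mRNA had 41.0 CPM. PHC2 followed at 418 ± 45.9 CPM (SD, n = 3). The PHC3 gene lies on the minus strand of chromosome 3 (chr3:170087584-170181749, hg38) and its exons span 14338 bases, against 4817 for PHC2 (chr1:33323623-33431095, minus strand). Per kilobase of exon the levels of these mRNAs were close in WT control libraries, at 90.5 ± 8.26 CPM per kb for PHC3 and 86.8 ± 9.52 for PHC2 (SD, n = 3). On the same per-kilobase scale PHC1 (chr12:8914509-8941467, plus strand) held 9.74 ± 1.44 CPM per kb (SD, n = 3), near the median of 10.1 over all tested mRNAs.

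The other members lay nearer to the middle. In WT control libraries BMI1 (chr10:22321099-22331484, plus strand), a PCGF-type RING finger subunit of PRC1, had 14.1 ± 1.54 CPM per kb (SD, n = 3). RNF2 (chr1:185045497-185102603, plus strand), the main ubiquitin ligase of PRC1, had 16.4 ± 1.99, and SUZ12 (chr17:31937007-32001038, plus strand), a core scaffold of PRC2, had 17.4 ± 2.13 (SD, n = 3 each, CPM per kb). EZH2 (chr7:148807383-148884291, minus strand), the methyltransferase of PRC2, had 7.45 ± 2.84 CPM per kb. RING1 (chr6:33208500-33212716, plus strand) had 4.95 ± 2.06, and CBX8 (chr17:79792132-79797077, minus strand), a chromodomain subunit that binds methylated histone H3, had 3.46 ± 1.14 (SD, n = 3 each, CPM per kb). BMI1, RNF2 and SUZ12 differed by less than the sum of their spreads, as did RING1 and CBX8. The value of BMI1 is divided by all of its 3540 exonic bases, of which 1000 are shared with another gene on the same strand. It can therefore be too low.

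**Figure D1:**
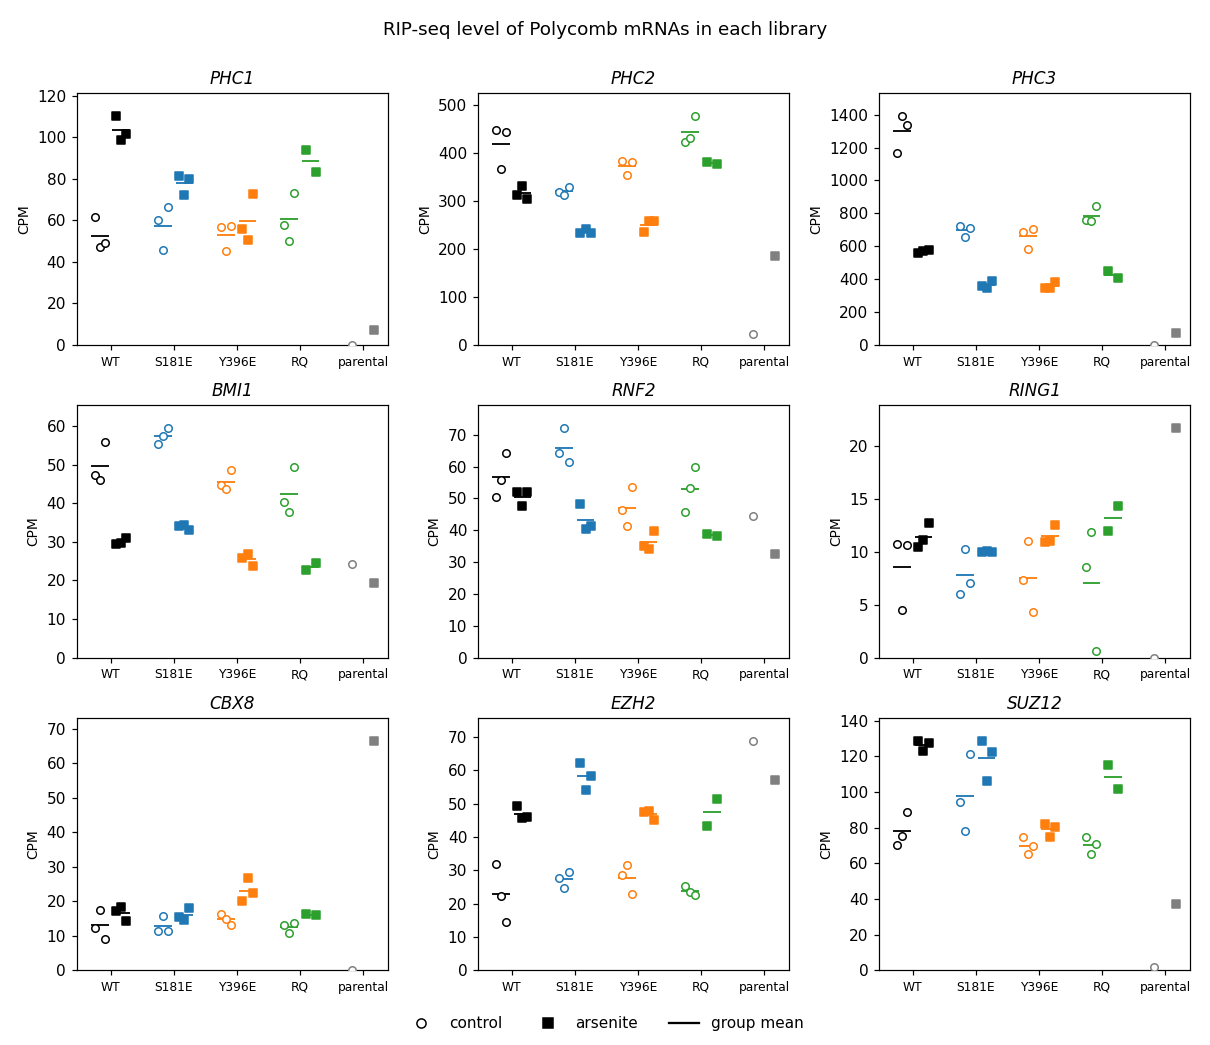
RIP-seq level in CPM (vertical axis, from 0, a different scale in each panel) of the 9 mRNAs in every library, by line (horizontal axis) and treatment. Each point is a library and each short line is the mean of a group; PHC3 sits between 1165 and 1393 CPM in WT control libraries, above its range of 585 to 845 CPM in the control libraries of the 3 mutants.

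The sequences of the transcripts were searched for what the selection did not use. In the GENCODE 44 canonical transcripts, PHC3 was 12652 bases long, at percentile 98.1 of the tested mRNAs (median 3682 bases), and 9646 of these bases were 3′ UTR (percentile 98.6). The letters GGAC, part of the zipcode through which IGF2BP1 binds ACTB mRNA, occurred at 1.19 per kb in PHC3, against a median of 3.55 per kb over tested mRNAs, which placed PHC3 at percentile 3.14. RNF2 (1.17 per kb), SUZ12 (1.33) and BMI1 (1.41) were also among the lowest, while CBX8 held 7.996 per kb (percentile 95.4) and RING1 6.32. PHC1 (3.15), PHC2 (3.26) and EZH2 (4.14 per kb) lay near the median. Only the transcript strand was searched.

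A zipcode-like arrangement was defined as CGGAC followed after 10 to 25 bases by an A or C, then CA, then a C or T, and 25.0% of the tested mRNAs held at least 1. PHC1, PHC2, CBX8, SUZ12 and RING1 held 1 each, all in the coding sequence, the one in RING1 across the junction of exons 2 and 3. None was found in PHC3, BMI1, RNF2 or EZH2. The sites of the 4 tested members are shown because they mark where these mRNAs differ from PHC3 in sequence, with the CGGAC and the second element in capitals and the bases between in lower case (hg38, transcript strand, written as DNA).
PHC1, chr12:8930885-8930915, plus strand, exon 7: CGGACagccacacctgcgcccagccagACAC
PHC2, chr1:33367132-33367158, minus strand, exon 7: CGGACggttcctgctgtggctgcCCAC
CBX8, chr17:79794681-79794714, minus strand, exon 5: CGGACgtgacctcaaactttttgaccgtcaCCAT
SUZ12, chr17:31994677-31994696, plus strand, exon 13: CGGACcagttaagagaACAC

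The 5-base core GGACT, in which N6-methyladenosine is commonly placed and for which IGF2BP proteins have been described as readers, occurred 5 times in PHC3. All 5 lay in exon 15 within the 3′ UTR, at 0.395 per kb of transcript against a median of 0.900, and 92.2% of tested mRNAs held at least 1. They are shown as windows of 25 bases, with GGACT in capitals (hg38, minus strand of chromosome 3). They are the only places with this core in the canonical transcript of PHC3, and its other exonic bases were not searched.
PHC3, chr3:170095950-170095974: gaacatgctgGGACTagctagaatg
PHC3, chr3:170093183-170093207: agctggggcaGGACTttctgatacc
PHC3, chr3:170090089-170090113: ttaacattaaGGACTtacaggttga
PHC3, chr3:170088955-170088979: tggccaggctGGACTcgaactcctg
PHC3, chr3:170088233-170088257: ttctaaaataGGACTttcatattat
The core occurred 6 times in PHC2, 4 in CBX8, 3 in PHC1 and EZH2, 2 in BMI1 and RNF2, 1 in RING1 and 0 in SUZ12. A match is a description of the letters and says nothing of binding or methylation at these places in these cells.

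PHC3 came down less with each mutant than with wild-type IGF2BP1, which is what it was chosen by. The 3 WT control libraries held 1165, 1393 and 1335 CPM. The S181E control libraries held 724, 658 and 708 CPM, the Y396E libraries 688, 585 and 706 CPM and the RQ libraries 759, 755 and 845 CPM. No mutant library reached the lowest WT library. The log2 fold changes to wild-type under control conditions were -0.89 for S181E, -0.96 for Y396E and -0.72 for RQ, which is 0.514 to 0.606 times the WT level.

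After arsenite the order of the lines for PHC3 was similar at lower levels. The WT arsenite libraries held 556, 570 and 577 CPM. The S181E libraries held 361, 344 and 386 CPM, the Y396E libraries 349, 345 and 384 CPM and the 2 RQ libraries 450 and 406 CPM. Again every mutant library lay below the WT libraries. The log2 fold changes were -0.65 for S181E, -0.63 for Y396E and -0.40 for RQ. Their size moved with the scaling. With total counts they were -0.49, -0.41 and -0.32, and with TMM factors from genes that did not exceed the parental level S181E was at -0.75 and Y396E at -0.92. Under control conditions total counts gave -0.72 for S181E and -0.69 for Y396E, and the parental-level genes gave -1.13 for Y396E. From the highest group mean to the lowest, PHC3 ran from WT control (1298 CPM) through RQ (786), S181E (696) and Y396E control (660) to WT arsenite (568), RQ (428), S181E (363) and Y396E arsenite (360). S181E and Y396E overlapped in both treatments, whereas the other neighbours in this order did not overlap. All 6 comparisons with wild-type use the same WT libraries of their treatment. The mRNA of the bait, IGF2BP1, stood at 66.4 CPM in WT control libraries and at 66.3, 93.0 and 111 CPM in those of S181E, Y396E and RQ. In arsenite libraries it stood at 40.1 CPM in WT and at 41.4, 52.1 and 80.6 CPM in S181E, Y396E and RQ.

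Of the 7 tested partners 1 passed the test under control conditions in S181E and 0 passed in Y396E and RQ. PHC2, the paralog of PHC3, fell in S181E. Its WT control libraries held 447, 365 and 443 CPM and its S181E libraries 319, 313 and 329 CPM, with no overlap. The log2 fold change was -0.38 (standard error 0.09, edgeR adjusted p = 0.00354). This was 1 lower of 7 tested partners, beside 8.0% of all tested genes that passed as lower in this comparison. The call was lost in a model of only the compared groups (edgeR adjusted p = 0.0831) and with scaling to total counts, where the log2 fold change was -0.21. For Y396E PHC2 had 384, 354 and 381 CPM, within the range of the WT libraries, and a log2 fold change of -0.15 (edgeR adjusted p = 0.196). For RQ it had 422, 430 and 477 CPM, likewise overlapping, and the log2 fold change was 0.08 (edgeR adjusted p = 0.617).

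SUZ12 came nearest to passing among the other partners in control libraries. It had 70.5, 75.5 and 89.0 CPM in WT and 94.4, 78.0 and 122 CPM in S181E, with overlapping ranges. The log2 fold change was 0.34 (edgeR adjusted p = 0.0628), and it passed as higher with the replicate number as a block (adjusted p = 0.0187), without S181E control replicate 2 (0.48, adjusted p = 0.0085) and without WT control replicate 3 (0.44, adjusted p = 0.0267). EZH2 was at 0.25 in S181E and 0.27 in Y396E and passed in both without WT control replicate 1 (0.58, edgeR adjusted p = 0.0169, and 0.60, adjusted p = 0.00908), the WT library with its highest level. Over the 7 tested partners the median log2 fold change was 0.22 for S181E, against 0.05 over all tested genes. For Y396E the partners' median was -0.11, 0 of 7 passed and 0 had an unadjusted p under 0.05 by edgeR, where DESeq2 also called 0, while 12.7% of all genes passed as lower and 16.2% as higher. For RQ the median was -0.05, with 0 of 7 by edgeR, 0 at an unadjusted p under 0.05 and 0 by DESeq2, beside 2.83% of all genes passing as lower and 3.51% as higher.

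Intervals show how far these comparisons reach. For CBX8, the partner with the fewest counts among those tested, the 95% confidence interval of the log2 fold change in control libraries ran from -0.44 to 0.41 for S181E, from -0.22 to 0.62 for Y396E and from -0.48 to 0.37 for RQ. For RNF2 it ran from -0.03 to 0.48, from -0.51 to 0.00 and from -0.36 to 0.16. PHC1 had intervals of -0.20 to 0.46, -0.31 to 0.35 and -0.14 to 0.52. EZH2 had -0.13 to 0.63, -0.10 to 0.65 and -0.34 to 0.42, and BMI1 -0.01 to 0.45, -0.34 to 0.12 and -0.46 to 0.01.

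After arsenite 4 of the 7 tested partners passed as lower in Y396E and 0 as higher. Among all tested genes 19.4% passed as lower and 13.1% as higher in this comparison. The 4 were PHC1, PHC2 and RNF2 of PRC1 and SUZ12 of PRC2. The partners' median log2 fold change was -0.30, against 0.01 over all tested genes. The mutants were not tested against each other. After arsenite PHC2 also passed as lower in S181E (log2 fold change -0.43). PHC1 in S181E (-0.42) and RNF2 in RQ (-0.39) were lower and PHC2 in RQ (0.27) was higher, without passing. In Y396E PHC2 and RNF2 stood 1.35- and 1.12-fold over the parental library.

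PHC1 showed the widest gap. It had 110, 98.6 and 101 CPM in the WT arsenite libraries and 55.7, 50.3 and 72.5 CPM in the Y396E libraries, with no overlap. The log2 fold change was -0.77 (standard error 0.16, edgeR adjusted p = 0.000761). SUZ12 had 129, 123 and 127 CPM in WT and 82.0, 74.9 and 80.5 CPM in Y396E, again with no overlap, for a log2 fold change of -0.65 (standard error 0.13, edgeR adjusted p = 0.000478). RNF2 had 52.0, 47.6 and 52.0 CPM in WT and 35.2, 34.3 and 39.7 CPM in Y396E. Its groups did not overlap, and the log2 fold change was -0.44 (standard error 0.12, edgeR adjusted p = 0.00851). PHC2 had 313, 331 and 304 CPM in WT and 235, 258 and 258 CPM in Y396E, and fell by 0.30 on the log2 scale (standard error 0.09, edgeR adjusted p = 0.00955). Scaled to total counts, PHC2 was at -0.08 and RNF2 at -0.22 and neither passed, and PHC2 also missed the threshold without Y396E arsenite replicate 1 (adjusted p = 0.0511).

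CBX8 moved the other way without passing. It had 17.1, 18.4 and 14.2 CPM in WT arsenite libraries and 20.1, 26.7 and 22.4 CPM in Y396E, with no overlap. The log2 fold change was 0.51 (95% confidence interval 0.10 to 0.92, edgeR adjusted p = 0.0520), and it passed by DESeq2's Wald test (0.53, adjusted p = 0.0274), with the replicate block (adjusted p = 0.0376), with only the groups compared and with scaling to total counts. BMI1 (29.5 to 31.1 CPM in WT, 23.8 to 26.8 in Y396E) and EZH2 (45.6 to 49.4 in WT, 45.3 to 47.8 in Y396E) did not pass, with log2 fold changes of -0.21 and 0.03. BMI1 passed as lower with the scaling on parental-level genes (-0.50, adjusted p = 0.0076), where the median of all genes was -0.29, and was at 0.012 with total counts.

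In S181E after arsenite PHC2 fell again, and it was the only partner of the 7 to pass, beside 5.34% of all genes that passed as lower. Its S181E arsenite libraries held 233, 241 and 233 CPM, all below the 304 to 331 CPM of the WT libraries. The log2 fold change was -0.43 (standard error 0.09, edgeR adjusted p = 0.00236). PHC1 had 81.2, 72.2 and 79.7 CPM, below every WT library, and a log2 fold change of -0.42 (edgeR adjusted p = 0.122). Replicate numbers paired the libraries in this comparison, and with the number as a block PHC1 passed as well (adjusted p = 0.0131), which made 2 of 7. EZH2 (54.3 to 62.3 CPM) and BMI1 (33.2 to 34.3 CPM) lay above their WT libraries, at log2 fold changes of 0.31 and 0.17, and neither passed.

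For RQ after arsenite 0 of 7 partners passed by edgeR, where 0.504% of all genes passed in either direction. DESeq2 called 0. The share of all tested genes at an unadjusted edgeR p under 0.05 was not counted, so it cannot stand beside the 3 partners that reached it. These were PHC2 (382 and 378 CPM, above all WT libraries, log2 fold change 0.27), BMI1 (22.6 and 24.5 CPM, below all WT libraries, -0.35) and RNF2 (38.7 and 38.2 CPM, below all WT libraries, -0.39), with edgeR adjusted p values of 0.298 to 0.334. PHC2 and RNF2 passed in a model of only the compared groups (adjusted p = 0.0346 and 0.0121). PHC2 and PHC3 lay on opposite sides of the WT libraries in RQ after arsenite.

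**Figure D2:**
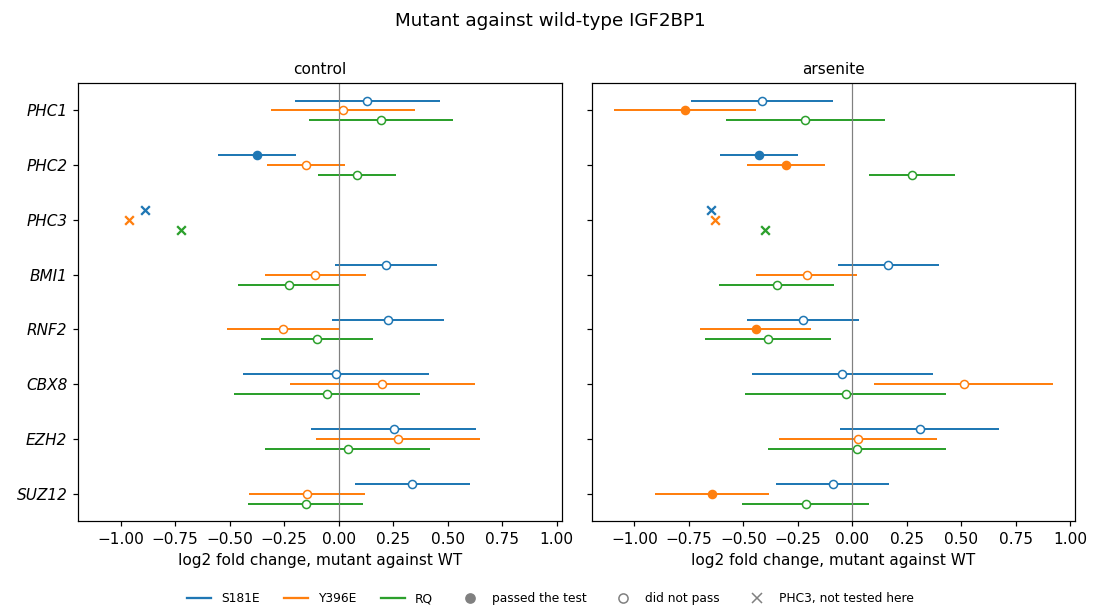
Log2 fold change of each mutant against WT (horizontal axis) for the 8 mRNAs above the level filter in control (left) and arsenite (right) libraries, with lines for the 95% confidence interval. Filled points passed the test, open points did not, and crosses are PHC3, which was chosen by these differences and is shown with no interval. In arsenite Y396E has 4 filled points, from -0.77 for PHC1 to -0.30 for PHC2.

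Whether a mutant's difference from wild-type changed with arsenite was tested by the interaction term. By edgeR 0 of 7 partners passed for any mutant. In all genes 0.389% passed for S181E, 2.85% for Y396E and 0.0687% for RQ. At an unadjusted p under 0.05 there were 3 partners for S181E, 2 for Y396E and 0 for RQ, and DESeq2 called 0, 1 and 0. The share of all tested genes at that unadjusted level was not counted. The 2 for Y396E were PHC1, at -0.79 (95% confidence interval -1.25 to -0.32, edgeR adjusted p = 0.0577), and SUZ12, at -0.50 (edgeR adjusted p = 0.134). PHC1 passed by DESeq2 (-0.73, adjusted p = 0.0447), with scaling to total counts, with the replicate block, with only the groups compared, and without WT control replicate 1 (-0.92), Y396E control replicate 2 (-0.88) or Y396E arsenite replicate 3 (-0.95). It did not pass with DESeq2's size factors, a looser level filter or TMM factors from genes that did not exceed the parental level. Nor did it pass when any other single library of these groups was left out. The 3 for S181E were PHC1 (-0.55), RNF2 (-0.45) and SUZ12 (-0.43), with edgeR adjusted p values of 0.277 to 0.308. For PHC3 the interaction was 0.24 for S181E, 0.33 for Y396E and 0.32 for RQ, given without a test.

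Arsenite changed the level of most of these Polycomb mRNAs in the RIP-seq libraries, in both directions. In each of the 4 lines 5 of the 7 tested partners passed. EZH2, which passed in all 4 lines, stood at 0.332-fold of the parental library in WT control and 0.820-fold in WT arsenite. Most tested genes moved as well, so a share of this size is not particular to the Polycomb mRNAs. In WT 31.8% of tested genes passed as lower and 35.4% as higher, in S181E 34.6 and 33.3%, in Y396E 33.8 and 31.3%, and in RQ 32.3 and 32.4%. PHC3 was chosen by the libraries that enter these comparisons, so its values here are a description.

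PHC3 was lower after arsenite and BMI1 fell in all 4 lines. For PHC3, the WT libraries went from 1165 to 1393 CPM in control to 556 to 577 CPM in arsenite, with no overlap, and the log2 fold change was -1.20. It was -0.96 in S181E, -0.87 in Y396E and -0.88 in RQ, where the libraries of the treatments did not overlap either. BMI1 in WT had 47.3, 45.98 and 56.0 CPM in control and 29.5, 29.8 and 31.1 CPM in arsenite, again without overlap. Its log2 fold change was -0.73 in WT (edgeR adjusted p = 5.09e-06), -0.79 in S181E, -0.84 in Y396E and -0.85 in RQ (adjusted p at most 4.34e-06 in these 3). The BMI1 gene shares 1000 of its 3540 exonic bases with the COMMD3-BMI1 readthrough gene on the same strand. Reads that fit both genes are not counted by default, so BMI1 can be counted too low. The 0 reads assigned to COMMD3-BMI1 therefore do not measure that gene. BMI1 stood 2.05-fold over the parental library in WT control and 1.565-fold in WT arsenite.

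PHC2 and RNF2 fell in 3 lines each. RNF2 stood only 1.28-fold over the parental library in WT control and 1.55-fold in WT arsenite. PHC2 fell by 0.42 on the log2 scale in WT (adjusted p = 0.000195), by 0.47 in S181E and by 0.57 in Y396E. In RQ its control libraries held 422, 430 and 477 CPM and its arsenite libraries 382 and 378 CPM. That log2 fold change of -0.23 had an adjusted p of 0.0448 but was smaller than 20%. It passed with TMM factors from genes that did not exceed the parental level (-0.55, adjusted p = 0.00165). RNF2 fell by 0.63 on the log2 scale in S181E (adjusted p = 0.000106), by 0.37 in Y396E (adjusted p = 0.0125) and by 0.46 in RQ (adjusted p = 0.00594). In WT its libraries overlapped between treatments, with 50.5, 55.7 and 64.2 CPM in control and 52.0, 47.6 and 52.0 CPM in arsenite, and its log2 fold change of -0.18 did not pass (adjusted p = 0.212), except under that scaling (-0.48, adjusted p = 0.010001). The Y396E call of RNF2 was lost without Y396E arsenite replicate 2 (-0.33, adjusted p = 0.0504) and without Y396E control replicate 3 (-0.26, adjusted p = 0.0952).

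EZH2 rose in all 4 lines. In WT it went from 31.8, 22.4 and 14.4 CPM in control to 49.4, 45.6 and 45.9 CPM in arsenite, with no overlap. Its log2 fold change was 1.01 in WT (standard error 0.18, edgeR adjusted p = 3.54e-05), 1.07 in S181E (adjusted p = 1.54e-05), 0.76 in Y396E (adjusted p = 0.000662) and 0.99 in RQ (adjusted p = 0.000122). Under the scaling on parental-level genes, which put the median of all genes in these comparisons at -0.26 to -0.44, the Y396E value was 0.35 and no longer passed (adjusted p = 0.0735).

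PHC1 rose in WT, S181E and RQ. Its WT libraries went from 61.4, 47.1 and 49.2 CPM to 110, 98.6 and 101 CPM, a log2 fold change of 0.96 (standard error 0.16, edgeR adjusted p = 1.42e-05). In S181E the libraries went from 59.9, 45.5 and 66.5 CPM to 81.2, 72.2 and 79.7 CPM, and the log2 fold change of 0.41 (adjusted p = 0.0253) was lost without S181E arsenite replicate 1 (0.37, adjusted p = 0.0748) or 3 (0.40, adjusted p = 0.0581), without S181E control replicate 2 (0.27, adjusted p = 0.155) and under the scaling on parental-level genes (0.04). In RQ it was 0.55 (adjusted p = 0.00836), lost without RQ arsenite replicate 1 (0.46, adjusted p = 0.0836) and under that scaling (0.22). In Y396E the treatments overlapped, with 56.5, 45.0 and 57.1 CPM in control and 55.7, 50.3 and 72.5 CPM in arsenite, and the value of 0.17 did not pass (adjusted p = 0.346). PHC1 counts carry an uncertainty from the pseudogene PHC1P1, which took 6.22 to 18.2% of the reads of the pair, and PHC1 shares 1107 exonic bases with M6PR on the opposite strand, which the stranded counting separates.

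SUZ12 rose in WT, from 70.5, 75.5 and 89.0 CPM to 129, 123 and 127 CPM, and in RQ, from 74.9, 65.3 and 70.8 CPM to 115 and 102 CPM. Neither pair of groups overlapped. The log2 fold changes were 0.68 in WT (adjusted p = 6.05e-05) and 0.62 in RQ (adjusted p = 0.000511), the latter not passing under the scaling on parental-level genes (0.31, adjusted p = 0.122). In S181E SUZ12 was at 0.25 (adjusted p = 0.0805), it passed without S181E arsenite replicate 2 (0.34) or S181E control replicate 3 (0.45), and that sign turned under the scaling on parental-level genes (-0.12). In Y396E it was at 0.18 (adjusted p = 0.217). CBX8 rose in Y396E, from 16.2, 14.9 and 13.2 CPM to 20.1, 26.7 and 22.4 CPM (0.65, adjusted p = 0.00684, not passing under the scaling on parental-level genes, at 0.23). In the other 3 lines its log2 fold change was 0.30 to 0.36 and did not pass, except in WT without WT control replicate 2 (0.60, adjusted p = 0.0135).

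**Figure D3:**
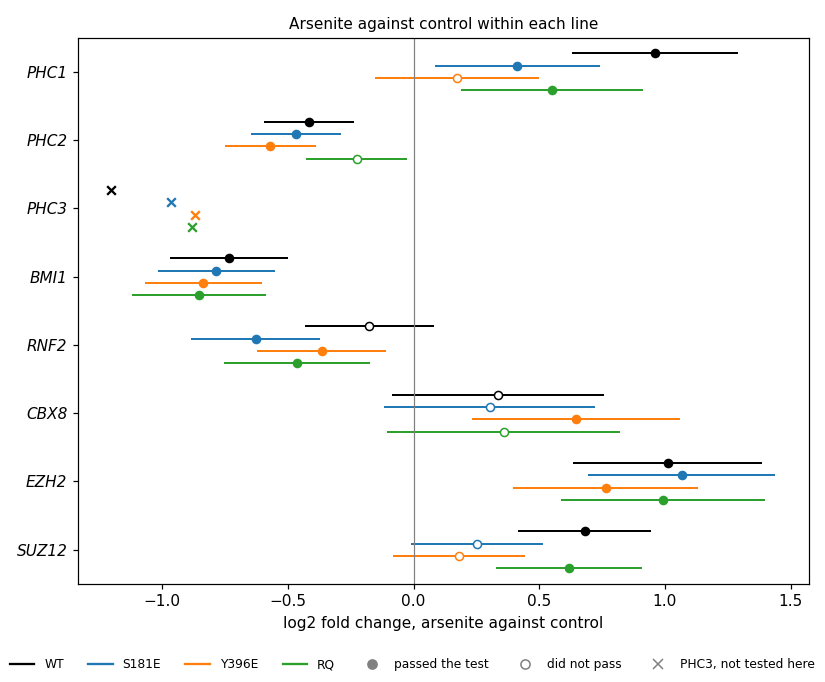
Log2 fold change of arsenite against control libraries within each line (horizontal axis) for the 8 mRNAs above the level filter, with lines for the 95% confidence interval. Filled points passed the test, open points did not, and crosses are PHC3, shown with no interval. PHC3 and BMI1 lie below 0 and EZH2 above 0 in all 4 lines, while PHC1 reaches 0.96 in WT and 0.17 in Y396E.

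RING1 gave few counts. It had 10.8, 4.47 and 10.6 CPM in WT control libraries and 10.4, 11.1 and 12.7 CPM in WT arsenite libraries. RQ control replicate 3 stood apart with 9 counts, or 0.604 CPM, where the other RQ control libraries had 8.59 and 11.9 CPM. With the looser filter of edgeR's filterByExpr, which tested 13417 genes, RING1 passed in 0 of the 13 comparisons. Its log2 fold changes there ran from -0.27 for RQ against WT in control to 0.87 for arsenite against control in RQ, with a lowest edgeR adjusted p of 0.182.

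The parental libraries set how far each mRNA stood above the beads. In the parental control library 4 members, PHC1, PHC3, RING1 and CBX8, were at 0 counts, as were 40.9% of all tested genes. A floor of 3 counts corresponds there to 2.02 CPM under TMM scaling. On that scale PHC3 was at least 641-fold and PHC1 at least 26.0-fold higher in WT control libraries. The scale matters, as PHC2 in WT control libraries stood 18.2-fold over this library with TMM and 7.86-fold with total counts. The bounds of PHC3 and PHC1 were not recomputed with total counts. SUZ12 had 3 counts in that library, PHC2 34, BMI1 36, RNF2 66 and EZH2 102. BMI1 and RNF2 were thus near this background in control libraries too. In WT control BMI1 stood 2.05-fold and RNF2 1.28-fold over it with TMM, and 0.882-fold and 0.549-fold with total counts. EZH2, at 68.8 CPM in the parental control library, was the only member with more there than in every control library of the lines.

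The deeper parental arsenite library gave a measured background for every member. After arsenite PHC1 stood 14.1-fold over the parental library in WT, 10.6-fold in S181E, 8.09-fold in Y396E and 12.0-fold in RQ. PHC3 stood 7.72-fold over it in WT, 4.94-fold in S181E, 4.89-fold in Y396E and 5.82-fold in RQ. SUZ12 stood 3.43-, 3.23-, 2.15- and 2.94-fold over it in the same order. Over 8700 tested genes with more than 3 parental counts the median was 1.14-fold in WT, where PHC1 was at percentile 99.0, PHC3 at 97.0 and SUZ12 at 89.0.

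PHC2, BMI1 and RNF2 were near the background after arsenite. PHC2 had 185 CPM in the parental arsenite library and stood 1.71-fold over it in WT and 1.27-fold in S181E. BMI1 stood 1.22- to 1.76-fold and RNF2 1.12- to 1.55-fold over it across the lines. Scaled to total counts, WT PHC2 was at 1.04-fold, BMI1 at 0.950-fold and RNF2 at 0.942-fold. RING1, EZH2 and CBX8 were at or below the parental level, with 0.527-fold, 0.820-fold and 0.249-fold in WT, and CBX8 lay at percentile 0.753 of all genes. The part of this background in the differences of these 6 mRNAs between lines and treatments was not tested. With 1 parental library per treatment there is no replicate error on these folds.

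**Figure D4:**
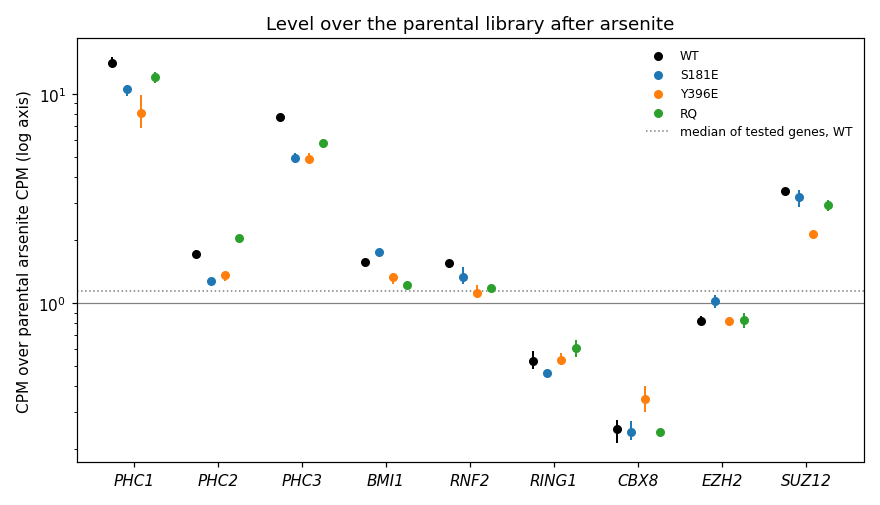
Mean CPM after arsenite divided by the CPM of the parental arsenite library (vertical axis, log scale) for the 9 mRNAs in each line. Vertical lines span the lowest to the highest library, the solid horizontal line is 1 and the dotted line is the median of tested genes in WT, 1.14. PHC1, PHC3 and SUZ12 lie above 2-fold in every line, and RING1 and CBX8 lie below 1 in every line.

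The mRNAs whose levels followed PHC3 most closely over the 23 libraries were none of its partners. By Pearson correlation of log2(CPM + 0.5), the 5 highest of all tested genes were ANKRD17 (r = 0.987), BPTF (0.975), NFATC3 (0.969), ARID1A (0.968) and KCTD13 (0.954). BPTF and ARID1A encode chromatin remodelling subunits. ANKRD17 had 2626 CPM in WT control libraries, 1576, 1363 and 1669 CPM in those of S181E, Y396E and RQ, and 1209 CPM in WT arsenite libraries. Among the partners r was 0.78 for PHC2, 0.73 for BMI1, 0.72 for RNF2, -0.40 for PHC1 and SUZ12, -0.63 for CBX8 and -0.86 for EZH2.

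These correlations span both treatments and so hold the arsenite change. Within the 11 arsenite libraries r with PHC3 was 0.84 for PHC1, 0.75 for RNF2, 0.63 for PHC2 and 0.62 for SUZ12, and within the 12 control libraries it was -0.05, 0.21, 0.46 and 0.04. For BMI1, CBX8 and EZH2 it was 0.03, -0.35 and -0.44 within arsenite and 0.08, -0.18 and -0.53 within control libraries. They are descriptions over libraries that share lines and scaling.

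The other Polycomb genes, taken from lists of 20 PRC1 subunits, 11 PRC2 subunits and cofactors and 11 members of the H2A deubiquitinase complex PR-DUB, gave 38 tested mRNAs. In S181E 4 passed in control libraries, 1 lower and 3 higher, beside 8.0% lower and 12.8% higher among all genes. KDM2B, a subunit that brings variant PRC1 to CpG islands, was at 0.53 (adjusted p = 0.00748), and RBBP4, a histone-binding subunit of PRC2, at 0.42 (adjusted p = 0.00368). FOXK2, a forkhead protein bound by PR-DUB, was at -0.31. These calls fell to 0 with only the groups compared. After arsenite 1 passed, MBD6 of PR-DUB at -0.47, which was lost without any 1 of the WT arsenite replicates and without S181E arsenite replicate 1 or 2. With the replicate block 8 passed, but the share of all genes passing under the block was not counted.

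For Y396E in control libraries 5 of the 38 were lower and 6 higher, near the shares of 12.7% lower and 16.2% higher among all genes, led by PCGF6 of variant PRC1 (-0.62, adjusted p = 0.000974) and by RBBP7 of PRC2 (0.70, adjusted p = 0.000961). The PR-DUB genes FOXK2 (-0.32) and BAP1 (0.56), the deubiquitinase itself, went opposite ways. After arsenite 11 of the 38 were lower and 4 higher, beside 19.4% lower and 13.1% higher among all genes. Of 18 tested PRC1 subunits 6 were lower and 3 higher, from PCGF6 at -1.16 (adjusted p = 5.45e-07) to PCGF1 at 0.66, with a median of -0.11. PCGF6 had 93.9 CPM in WT and 41.1 CPM in Y396E arsenite libraries. Of 10 tested PR-DUB genes 5 were lower, with MBD5 at -0.84 (adjusted p = 4.63e-05), and 1 was higher, BAP1 at 0.42. RQ had 2 calls of 38 in control libraries, beside 2.83% lower and 3.51% higher among all genes, CBX2 at -0.59 and CBX6 at 0.36, both chromodomain subunits of PRC1, and both were lost with only the groups compared. It had 0 after arsenite by edgeR and by DESeq2, with 1 PRC1 gene at an unadjusted p under 0.05, a level not counted over all genes.

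After arsenite 22 to 24 of these 38 genes passed in each line, a share no larger than that of all genes, of which 31.8 to 34.6% passed as lower and 31.3 to 35.4% as higher. In WT 8 of the 18 PRC1 subunits were lower and 4 higher, with PCGF3 at -1.77 (adjusted p = 3.76e-10). PCGF3 fell from 190 to 56.2 CPM. Among 10 PRC2 genes 5 were lower and 3 higher, from LCOR at -1.26 to RBBP7 at 1.04. Among 10 PR-DUB genes 1 was lower, MBD5 at -0.47, and 3 were higher, led by HCFC1, a host cell factor bound by BAP1, at 1.48 (adjusted p = 1.4e-09). HCFC1 rose from 175 to 491 CPM. The lowest PRC1 gene was PCGF3 in Y396E (-1.59) and RQ (-1.72) as well and PCGF5 in S181E (-1.65). BCOR, a subunit of variant PRC1, was the highest in S181E (1.05) and Y396E (1.00). LCOR and RBBP7 were the lowest and the highest gene of the PRC2 list in all 4 lines.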

How the data were processed

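RIP-seq libraries of mCherry-IGF2BP1 and its mutants were analysed from the counts the authors deposited, raw reads per gene for 63086 genes and 25 libraries. The authors aligned reads to hg38 with STAR 2.7.11b, allowing 2 mismatches, and counted them on exons with featureCounts of Subread 2.0.6 (strand setting 2, GENCODE 46 basic annotation, per the file headers). The demultiplexing used bcl2fastq 2.20.0.422 and read quality was checked with FastQC 0.11.9. Reads that fit several genes or places are not counted by default, so genes with near-identical copies can be counted too low.

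Symbols, biotypes and canonical transcripts were taken from GENCODE 44 by Ensembl identifier, and 545 identifiers were not found. TMM factors over protein-coding genes gave CPM, over all 25 libraries for printed levels and over 23 for tests. Following the authors' methods, genes above 10 CPM in 11.5 or more of 23 libraries entered 1 edgeR 4.0.16 quasi-likelihood model of 8 groups with no covariates (R 4.3.3, limma 3.58.1), and a gene was called at a Benjamini-Hochberg adjusted p under 0.05 and a change over 20%. Parental libraries entered no test. DESeq2 1.42.0, other scalings, filters, models and each library left out in turn were alternatives. Python 3.11.15 with pandas 2.3.3 prepared the tables, and matplotlib 3.10.9 drew the plots. The procedure was tested on simulated data.

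The named genes are the 9 members, the called gene with the lowest and the highest log2 fold change of each of 3 further Polycomb lists in each comparison, the 5 tested genes that correlate most with PHC3, and markers. A result that this rule names is not reported here. The members and lists were chosen with earlier results of these data known. Folds against a parental count of 0 use a floor of 3 counts, and floors and intervals on counts cover counting error only, since PCR copies are not independent molecules. No 2 libraries held identical counts, and p-values measure the spread between independently grown dishes of 1 cell population per genotype.

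Groups share replicate numbers. Pairing was checked by correlating the deviations of same-numbered libraries from their group means. For S181E and WT in arsenite all 3 correlations lay between 0.286 and 0.395, so these libraries were taken as paired, from the data and not from the labels. In no other comparison of 3 pairs did every correlation exceed 0.1. RNA-Seq libraries were not analysed here.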

Additional observations from a re-analysis of the deposited data

Results flagged for a closer look

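Among the 8 partners in each mutant, RNF2 in S181E was the 1 result that met a rule on sign. Every library of the group went one way under control conditions and the opposite way after arsenite. The share of all tested genes that meet this rule was not counted. RNF2 in S181E stood 1.48-fold over the parental library in control and 1.33-fold in arsenite. Relative to the mean of the WT libraries of the same treatment, the S181E libraries averaged 0.22 in log2 CPM in control and -0.22 in arsenite, a difference of -0.44 between treatments. In CPM, the control libraries held 64.3, 72.0 and 61.6 against a WT mean of 56.8, and the arsenite libraries 48.4, 40.3 and 41.3 against 50.5. The S181E and WT libraries overlapped in each treatment. The interaction term for this gene was -0.45 (95% confidence interval -0.82 to -0.09) and did not pass (edgeR adjusted p = 0.277).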

How the results depend on the processing

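Each count of called members was recomputed under 8 other settings and without each library in turn, and so were the log2 fold changes of the members named. Of the recomputed counts 91 stayed within 1.5 times the reported one under the other settings and 13 did not, and 86 and 7 did so without a library. These tallies hold counts that were 0 and stayed 0, which weigh little as agreement. The share of all tested genes called was counted in the main model only. Counts under other settings therefore stand without that share and cannot be read as particular to Polycomb genes. In the arsenite against control comparisons they also include PHC3. The partners called for S181E in control numbered 1, against 3 (all higher: BMI1, RNF2 and SUZ12) with total counts, 2 with the replicate block, 0 with only the groups compared and 1 to 2 without a library. For S181E in arsenite they numbered 1, against 2 with total counts, 2 with the replicate block and 3 with only the groups compared. The block changed the call of PHC1 and of no other partner in that comparison, the one whose libraries pair. For Y396E in control they numbered 0, against 1 with total counts (EZH2, higher), 1 with TMM factors from the 1532 genes that did not exceed the parental level (RNF2, lower) and 0 to 1 without a library. For Y396E in arsenite the 4 lower and 0 higher became 2 lower and 1 higher with total counts. For RQ in arsenite they numbered 0, against 2 with only the groups compared. For the Y396E interaction they numbered 0, against 2 with total counts, 2 with the replicate block, 1 with only the groups compared, 1 by DESeq2 and 0 to 1 without a library. PHC3 was chosen by its fall in these same libraries, so its sign under other settings is a description and no support. Its log2 fold change to WT stayed below 0 under each setting. The widest ranges were -1.13 to -0.69 for Y396E in control and -0.92 to -0.41 for Y396E in arsenite. Signs turned for RNF2 in Y396E control (-0.25, and 0.016 with total counts), BMI1 in Y396E arsenite (-0.21, and 0.012 with total counts) and SUZ12 for arsenite in S181E (0.25, and -0.12 with TMM factors from genes that did not exceed the parental level). Total counts put the median of all genes at 0.07 to 0.32 in the mutant comparisons. The other Polycomb genes called in Y396E control numbered 11, against 18 with total counts, 18 with the replicate block and 5 with only the groups compared, and in S181E control 4, against 8, 7 and 0. In S181E arsenite they numbered 1, against 2 with total counts, 8 with the replicate block, 12 with only the groups compared and 0 with filterByExpr. In RQ control 2 became 1 with DESeq2's size factors, TMM over parental-level genes or filterByExpr, and 0 with only the groups compared. For the Y396E interaction 0 became 4 with total counts and 3 with the replicate block. Scaled to total counts, PHC3 stood 4.69-fold and PHC1 8.54-fold over the parental arsenite library in WT, and PHC2 in WT control stood 2.26-fold over the parental arsenite library, against 18.2-fold over the parental control library with its 34 counts. The cause of these shifts was not tested. Levels near 10 CPM, as for RING1, limit the comparison of that gene.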
